A study of Mus musculus with 8 samples.

Results

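DNA replication genes were examined as a group of 10: the helicase genes Mcm2, Mcm3, Mcm4, Mcm5, Mcm6 and Mcm7, the clamp gene Pcna, and the nucleotide enzyme genes Rrm1, Rrm2 and Tyms. They were chosen by name, and every probe set whose only gene symbol was one of these was taken, which gave 30 of the 45101 probe sets on the array. A probe set is the group of short array probes that reads 1 transcript. Of the 30, 20 varied by at least 0.01 on the log2 scale over the 8 arrays and are called measured. The other 10 held practically the same value on every array and carry no comparison. Measured probe sets covered 8 of the 10 genes, among 7181 genes measured in the whole table. Mcm4 had 2 probe sets, flat at 11.42 and 11.40, and Tyms had 4, flat at 6.01, 6.07, 6.69 and 6.71, so neither gene can be compared.

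RNA came from mouse embryonic stem cells, which grow from the early embryo and divide fast. The 8 arrays formed 4 genotypes of 2 biological replicates each. Double-KO cells (Jmjd1a delta/delta; Jmjd1b delta/delta) lacked both H3K9 demethylases and were obtained by inducing deletion of a conditional Jmjd1b allele with MerCreMer in cells that all descend from 1 Jmjd1a-deficient line. Jmjd1a-KO cells (Jmjd1a delta/delta; Jmjd1b +/+) and Jmjd1b-KO cells (Jmjd1a +/+; Jmjd1b delta/delta) lacked 1 enzyme each, and WT cells (Jmjd1a +/+; Jmjd1b +/+) lacked neither. The labels describe WT and Jmjd1b-KO cells as derived from mice and the other groups as lines, while the design text describes Jmjd1b-deficient lines made with a Cre adenovirus, so genotype and the background of the line cannot be told apart. The treatment text of all 8 samples names OHT, the compound that switches on an inducible Cre, at 800 nM. All cells grew with LIF in medium with knockout SR. The sources used here do not say which replicate came from which cell line, or which promoter drove MerCreMer. RNA was taken from whole cultures, so fewer cells in S phase and less RNA per cell cannot be told apart.

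Before DNA is copied, the MCM2 to MCM7 proteins are loaded at replication origins as a ring that becomes the helicase unwinding the double strand. PCNA is the sliding clamp that holds DNA polymerases on the template. RRM1 and RRM2 are the large and small subunits of ribonucleotide reductase, which makes deoxyribonucleotides, and TYMS makes the thymidine nucleotide. Many of these genes are transcribed toward S phase under E2F factors.

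The promoter windows of genes that behaved differently in the double-KO cells are shown because members of 1 pathway moved in different directions. Each window holds the 250 bases before and the 50 bases after the annotated start, from RefSeq on GRCm38.p6. The search used 4 E2F words on both strands: TTTCCCGC, TTTCGCGC, TTTGCCGC and TTTGGCGC. Capitals mark matches, and overlapping matches run together. The windows are Rrm2 at chr12:24708004-24708303 on the plus strand, and Pcna at chr2:132253131-132253430, Mcm7 at chr5:138171834-138172133 and Mcm6 at chr1:128359656-128359955 on the minus strand.
Rrm2: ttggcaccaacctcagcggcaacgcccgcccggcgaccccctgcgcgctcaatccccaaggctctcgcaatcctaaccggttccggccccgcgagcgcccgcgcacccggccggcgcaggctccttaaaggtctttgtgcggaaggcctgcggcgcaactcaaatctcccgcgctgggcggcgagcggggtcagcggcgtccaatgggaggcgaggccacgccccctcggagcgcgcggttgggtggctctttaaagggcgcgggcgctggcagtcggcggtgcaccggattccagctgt
Pcna: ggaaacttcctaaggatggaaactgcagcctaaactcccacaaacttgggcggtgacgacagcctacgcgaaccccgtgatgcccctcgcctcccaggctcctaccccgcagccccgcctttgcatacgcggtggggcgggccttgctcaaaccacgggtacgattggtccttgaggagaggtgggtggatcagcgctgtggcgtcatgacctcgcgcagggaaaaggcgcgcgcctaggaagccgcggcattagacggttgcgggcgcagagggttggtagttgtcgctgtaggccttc
Mcm7: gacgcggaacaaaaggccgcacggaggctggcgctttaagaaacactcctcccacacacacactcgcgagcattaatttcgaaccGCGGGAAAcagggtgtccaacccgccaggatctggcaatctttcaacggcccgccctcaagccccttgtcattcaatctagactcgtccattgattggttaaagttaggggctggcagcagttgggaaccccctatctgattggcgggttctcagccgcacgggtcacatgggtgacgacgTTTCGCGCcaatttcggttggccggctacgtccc
Mcm6: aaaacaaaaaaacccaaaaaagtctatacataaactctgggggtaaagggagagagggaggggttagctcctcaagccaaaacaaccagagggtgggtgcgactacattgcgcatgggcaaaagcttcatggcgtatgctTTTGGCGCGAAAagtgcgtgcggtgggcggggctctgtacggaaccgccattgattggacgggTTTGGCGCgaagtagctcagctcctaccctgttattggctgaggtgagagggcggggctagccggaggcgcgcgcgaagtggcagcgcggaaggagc
Of the 10 genes, 9 were matched in the promoter table, and 4 of them had an E2F word: Mcm3, Mcm5, Mcm6 and Mcm7. Of all 32851 promoter windows of this length in the table, 2.26% had one. The windows of Mcm2, Pcna, Rrm1, Rrm2 and Tyms had none of these letters, and a second Mcm7 start, at chr5:138171217-138171516, had none either. A CCAAT word stood in the windows of Rrm2, Pcna, Mcm7 and Mcm6, as in 37.4% of all windows.

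The labels were checked on the deleted genes. Kdm3a, the present name of Jmjd1a, averaged 4.68 in double-KO and 4.98 in Jmjd1a-KO cells on the log2 scale, against 12.81 in Jmjd1b-KO and 12.78 in WT cells. Kdm3b, the present name of Jmjd1b, averaged 7.36 in double-KO and 7.08 in Jmjd1b-KO cells, against 9.88 in Jmjd1a-KO and 9.93 in WT cells. All 10 listed embryonic stem cell markers were measured, and their array means ran between 11.38 and 12.08 for double-KO, 11.98 and 12.11 for Jmjd1a-KO, 11.50 and 11.57 for Jmjd1b-KO, and 11.56 and 11.57 for WT. Medians of the 11502 measured probe sets were 8.92 and 8.89 on the double-KO arrays, against 8.80 to 8.86 on the other 6. Replicates of double-KO and Jmjd1a-KO cells lay further apart, with an SD of the replicate difference over probe sets of 0.30 for double-KO and 0.345 for Jmjd1a-KO, against 0.12 for Jmjd1b-KO and 0.161 for WT. All levels and differences below are log2 signals or differences of log2 signals, and a change passed where limma's adjusted p was under 0.05.

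Rrm2 had the largest change among the 8 measured members. It fell in double-KO cells against each other genotype on all 3 of its probe sets, while neither single knockout passed the test against WT. Against WT cells, 1 member gene rose (Mcm7) and 3 fell (Rrm2, Rrm1 and Pcna) of the 8 measured. Among all genes measured, 51.0% passed in that comparison, 29.8% higher and 21.3% lower, so the share of members that passed is close to the background and is not a result about the group. The count of 4 became 1 without WT replicate 1, 2 without WT replicate 2, 2 without double-KO replicate 1 and 1 without double-KO replicate 2. By probe sets, 46.5% of all measured ones passed, and 78.4% had no overlap between the double-KO and WT arrays, so a lack of overlap is common here.

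**Figure D1:**
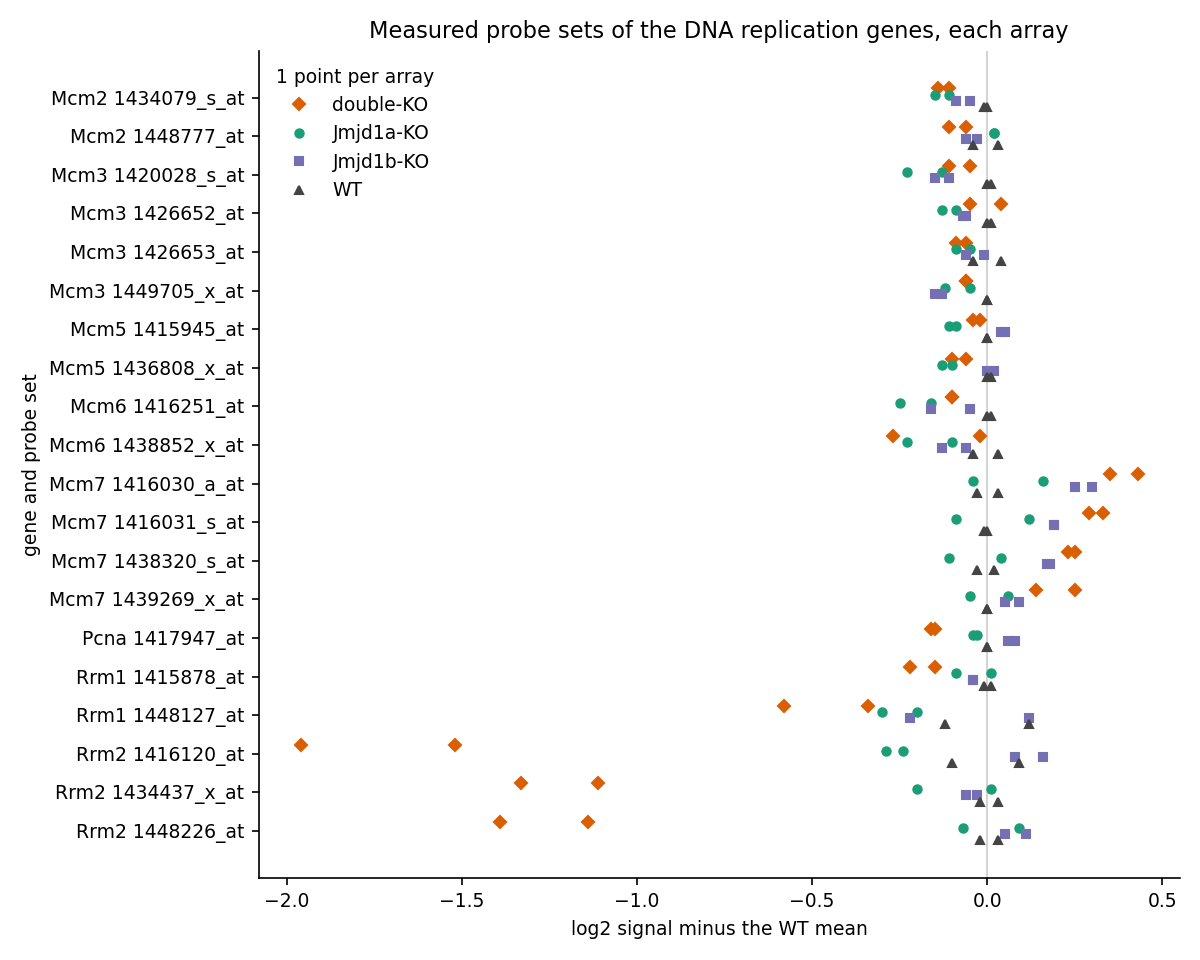
Log2 signal of each measured member probe set on each of the 8 arrays, minus the mean of the WT arrays of that probe set; every point is 1 array. The Rrm2 points of double-KO cells lie more than 1 log2 unit below WT, the Mcm7 points of double-KO cells lie to the right, and most other points lie close to 0.

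Rrm2, at chr12:24708254-24714146 on GRCm38.p6, encodes the small subunit of ribonucleotide reductase, whose level follows the cell cycle. Probe set 1416120_at read 9.33 and 9.77 in double-KO cells, 11.00 and 11.05 in Jmjd1a-KO cells, 11.45 and 11.37 in Jmjd1b-KO cells, and 11.19 and 11.38 in WT cells. Probe set 1434437_x_at read 11.54 and 11.76 in double-KO cells, 12.67 and 12.88 in Jmjd1a-KO cells, 12.81 and 12.84 in Jmjd1b-KO cells, and 12.85 and 12.90 in WT cells. Probe set 1448226_at read 11.06 and 11.31 in double-KO cells, 12.38 and 12.54 in Jmjd1a-KO cells, 12.50 and 12.56 in Jmjd1b-KO cells, and 12.43 and 12.48 in WT cells. On every Rrm2 probe set both double-KO arrays were lower than all 6 others. The 3 probe sets followed each other closely over the 8 arrays, with pairwise Pearson r of 0.984 to 0.996, given as a description.

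**Figure D2:**
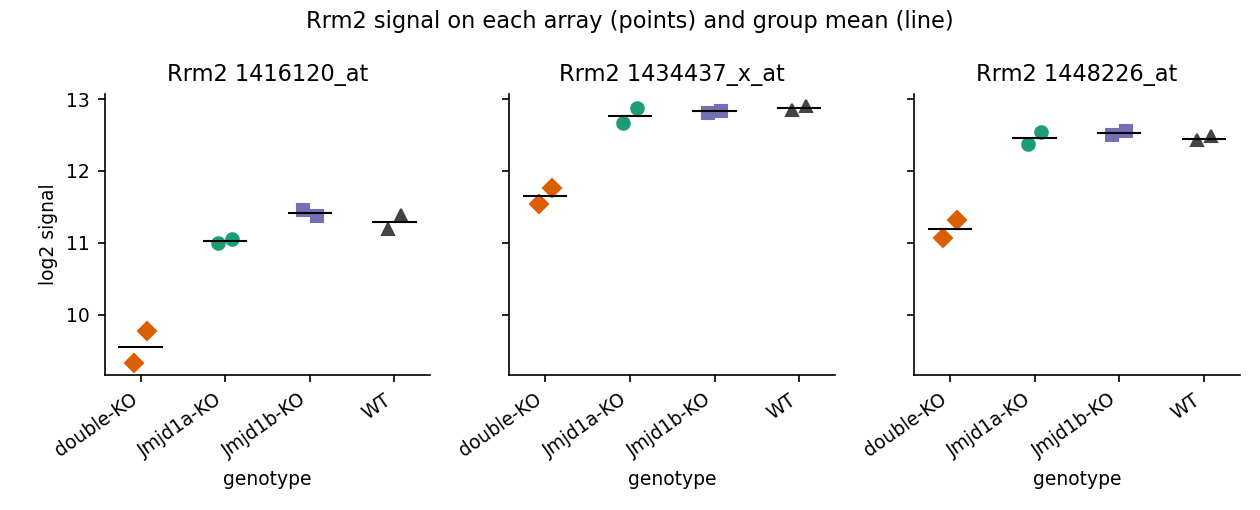
Log2 signal of the 3 Rrm2 probe sets on each array (points, 2 per genotype) with the group mean (line), on 1 shared axis that does not start at 0. On 1416120_at the double-KO arrays read 9.33 and 9.77, and the 6 other arrays read 11.00 to 11.45.

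Against WT cells, Rrm2 fell by 1.74 (SE 0.15, limma adjusted p = 0.000695) on 1416120_at, by 1.22 (adjusted p = 0.000624) on 1434437_x_at and by 1.27 (adjusted p = 0.000541) on 1448226_at. On the linear scale the double-KO signal was 0.299 to 0.428 times the WT signal. Of the 11502 measured probe sets, 156 fell as much as or more than 1416120_at, which is 1.36%, and the shares for the other Rrm2 probe sets were 2.77% and 2.56%. Rrm2 was thus among the larger falls in these cells, but not the largest.

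Neither Jmjd1a-KO nor Jmjd1b-KO cells passed against WT cells in Rrm2. In Jmjd1a-KO cells the differences ran between -0.26 and 0.01, with 95% intervals that reached -0.63 and 0.25. In Jmjd1b-KO cells they ran between -0.05 and 0.12, with intervals that reached -0.29 and 0.49. Against the single knockouts, which share the double-KO arrays with the comparison above, the Rrm2 differences lay between -1.48 and -1.12 for double-KO minus Jmjd1a-KO (adjusted p = 0.00124 to 0.00267) and between -1.86 and -1.18 for double-KO minus Jmjd1b-KO (adjusted p = 0.000413 to 0.00059).

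The interaction asks whether loss of Jmjd1b did more in Jmjd1a-deficient cells than in cells with Jmjd1a. For Rrm2 the change with Jmjd1b loss was -1.48, -1.12 and -1.28 in Jmjd1a-deficient cells, against 0.12, -0.05 and 0.08 in cells with Jmjd1a. The differences between these changes were -1.60 (SE 0.21, limma adjusted p = 0.00713), -1.08 (SE 0.14, adjusted p = 0.00713) and -1.35 (SE 0.14, adjusted p = 0.00432). Rrm2 was 1 of the 8 measured member genes, and no other member passed this test, where 29.2% of all genes and 24.9% of all probe sets did. With the flat probe sets kept in the fit, the interaction no longer passed on 1416120_at (adjusted p = 0.0689) and 1434437_x_at (adjusted p = 0.0592).

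Rrm1, at chr7:102441695-102469771, the large subunit that pairs with RRM2 and holds the catalytic site, moved far less. Probe set 1415878_at read 10.68 and 10.61 in double-KO cells, 10.84 and 10.74 in Jmjd1a-KO cells, 10.79 and 10.79 in Jmjd1b-KO cells, and 10.84 and 10.82 in WT cells. Probe set 1448127_at read 9.60 and 9.36 in double-KO cells, 9.64 and 9.74 in Jmjd1a-KO cells, 10.06 and 9.72 in Jmjd1b-KO cells, and 9.82 and 10.06 in WT cells. Both double-KO arrays were below every other array on both probe sets. Rrm1 fell in double-KO against WT cells by 0.19 on 1415878_at (limma adjusted p = 0.0435) and by 0.46 on 1448127_at (adjusted p = 0.0497). The first call was lost without either WT, either Jmjd1b-KO or either double-KO array (adjusted p = 0.0726 to 0.165), and the second without either WT, either Jmjd1a-KO or either double-KO array (adjusted p = 0.0592 to 0.219). Both were also lost with the replicate block, when other groups were left out of the fit and with all probe sets in the fit, and the second with array weights. Rrm1 passed in no other comparison, and its 95% intervals against the single knockouts reached -0.58 and 0.16 for Jmjd1a-KO and -0.78 and 0.00 for Jmjd1b-KO.

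Pcna, at chr2:132249286-132253180, had 1 probe set, and its double-KO arrays were the lowest of the 8. It read 13.16 and 13.17 in double-KO cells, 13.29 and 13.28 in Jmjd1a-KO cells, 13.38 and 13.40 in Jmjd1b-KO cells, and 13.32 and 13.32 in WT cells. No pair of groups overlapped. Pcna fell in double-KO cells by 0.16 against WT cells (limma adjusted p = 0.0392), to 0.897 times the WT signal, and by 0.22 against Jmjd1b-KO cells (adjusted p = 0.0112). The call against WT was lost without either WT, either Jmjd1b-KO or either double-KO array (adjusted p = 0.0858 to 0.142), when other groups were left out of the fit and with the replicate block. The call against Jmjd1b-KO was lost without either Jmjd1b-KO array (adjusted p = 0.0589 to 0.0783).

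Among the measured helicase genes only Mcm7, at chr5:138164583-138172111, passed, and it rose. Probe set 1416030_a_at read 11.82 and 11.90 in double-KO cells, 11.63 and 11.43 in Jmjd1a-KO cells, 11.72 and 11.77 in Jmjd1b-KO cells, and 11.44 and 11.50 in WT cells. Probe set 1438320_s_at read 13.00 and 13.02 in double-KO cells, 12.81 and 12.66 in Jmjd1a-KO cells, 12.95 and 12.94 in Jmjd1b-KO cells, and 12.79 and 12.74 in WT cells. In both, the double-KO arrays were the highest and the Jmjd1b-KO arrays came next, while the Jmjd1a-KO arrays overlapped WT. The other 2 Mcm7 probe sets had the same order for double-KO over WT, and pairwise r over the 4 was 0.832 to 0.969.

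Mcm7 rose in double-KO against WT cells by 0.39 on 1416030_a_at (limma adjusted p = 0.0112), 0.32 on 1416031_s_at (adjusted p = 0.0218) and 0.25 on 1438320_s_at (adjusted p = 0.0278). The fourth, 1439269_x_at, differed by 0.20 (adjusted p = 0.0538). These are signals 1.15 to 1.31 times WT. Against Jmjd1a-KO cells, where 33.1% of all genes and 28.9% of probe sets passed, Mcm7 rose by 0.28 to 0.33 on 3 probe sets, and against Jmjd1b-KO cells it differed by 0.07 to 0.13 with none passing. Jmjd1b-KO cells differed from WT cells by 0.07 to 0.27, none passing in the fit of all groups (lowest adjusted p = 0.0579), while 13 of 65 alternative values passed.

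The Mcm7 calls depended on single arrays. Against WT, 1416030_a_at was lost without WT replicate 1 and without double-KO replicate 2 (adjusted p = 0.0531 and 0.0653), 1416031_s_at without each WT and double-KO array (adjusted p = 0.0623 to 0.0942), and 1438320_s_at without each WT, Jmjd1b-KO and double-KO array (adjusted p = 0.0607 to 0.126). With each array centred on its measured median 1416030_a_at passed and the other 2 did not, and with all probe sets in the fit none of the 3 passed (adjusted p = 0.073 to 0.171). Against Jmjd1a-KO cells each of the 3 calls was lost in 7 of the 8 omissions, all but that of Jmjd1a-KO replicate 1 (adjusted p = 0.0577 to 0.14). These 3 calls against Jmjd1a-KO cells were also lost with centring, all probe sets in the fit, only the groups compared, and array weights. With the replicate block the calls on 1416030_a_at and 1416031_s_at were lost as well. Names ending in _s_at or _x_at mark probe sets whose probes may also match other transcripts, so they are less specific to Mcm7.

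Mcm2, Mcm3, Mcm5 and Mcm6, which make up the ring together with MCM4 and MCM7, passed in none of the 7 comparisons on any of their 10 measured probe sets. Between 17.8% (Jmjd1a-KO against WT) and 50.1% (double-KO against Jmjd1b-KO) of all probe sets passed, with 23.9% for Jmjd1b-KO against WT and 27.8% for Jmjd1a-KO against Jmjd1b-KO. In double-KO against WT cells all 10 differences were below 0, between -0.14 and -0.01, with 95% intervals that reached -0.39 and 0.13. In Jmjd1a-KO against WT cells 9 of 10 were below 0, between -0.21 and 0.02. In Jmjd1b-KO against WT cells they ran between -0.14 and 0.05. No interval reached the Rrm2 fall of 1.22 or more.

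Within these helicase genes, Mcm6 and Mcm5 had the lowest adjusted p. Probe set 1416251_at read 11.93 and 11.93 in double-KO cells, 11.87 and 11.78 in Jmjd1a-KO cells, 11.98 and 11.87 in Jmjd1b-KO cells, and 12.03 and 12.04 in WT cells. The WT arrays were the highest, and the Jmjd1a-KO difference of -0.21 had an adjusted p of 0.0662. Mcm3 probe set 1420028_s_at had 11.11 and 11.17 in double-KO cells, 11.09 and 10.99 in Jmjd1a-KO cells, 11.11 and 11.07 in Jmjd1b-KO cells, and 11.23 and 11.22 in WT cells, again with WT highest. Mcm5, on 1415945_at, had 11.08 and 11.10 in double-KO cells, 11.01 and 11.03 in Jmjd1a-KO cells, 11.16 and 11.17 in Jmjd1b-KO cells, and 11.12 and 11.12 in WT cells, so that Jmjd1a-KO was lowest and Jmjd1b-KO highest, and the difference of -0.15 between these groups also had an adjusted p of 0.0662. Mcm2 probe set 1448777_at had 11.12 and 11.17 in double-KO cells, 11.25 and 11.25 in Jmjd1a-KO cells, 11.17 and 11.20 in Jmjd1b-KO cells, and 11.26 and 11.19 in WT cells. The order of the groups thus differed between the helicase genes, and neighbours in that order did not pass the test. The median span over the 8 arrays was 0.21 for the 14 measured Mcm probe sets, against 0.64 for all measured probe sets.

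**Figure D3:**
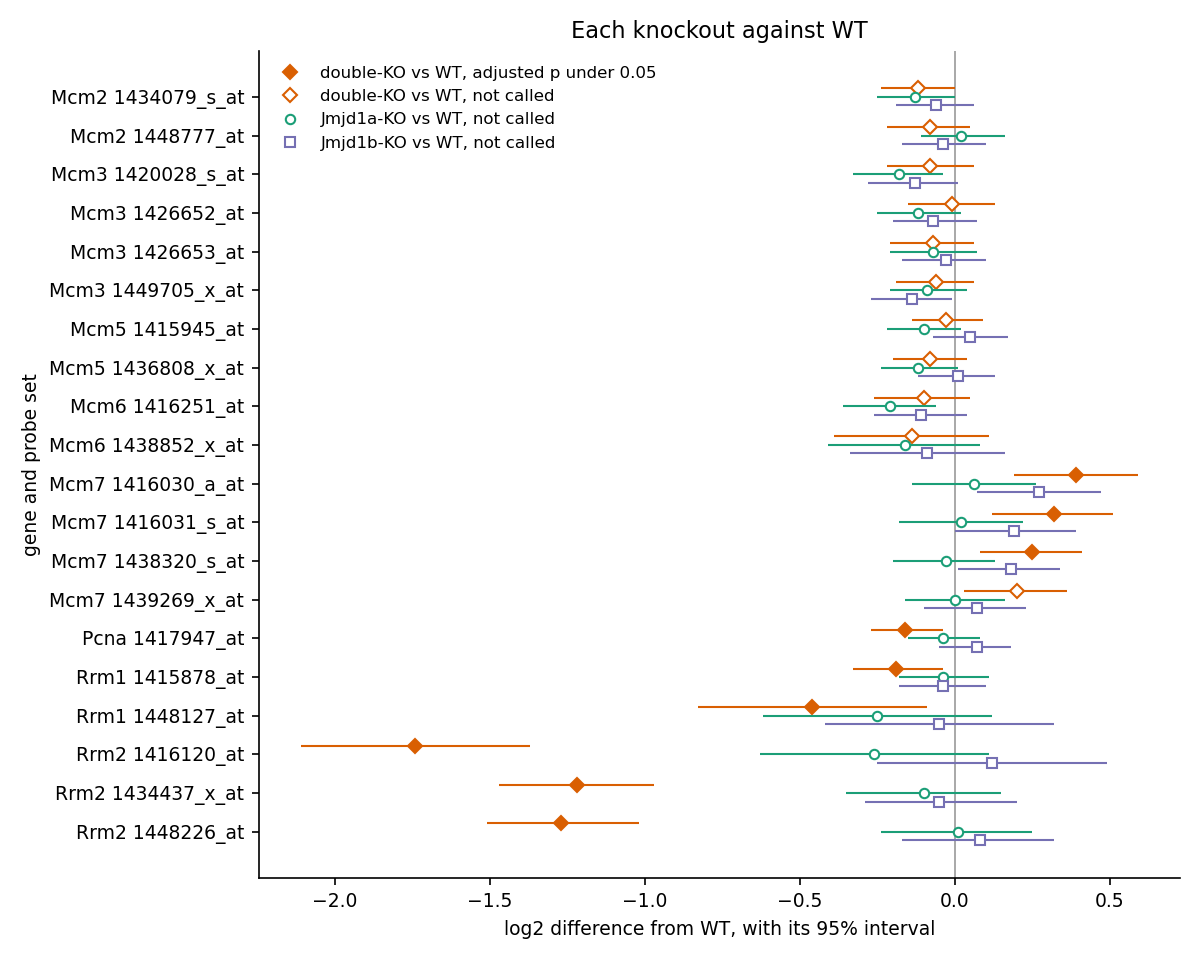
Log2 difference of each knockout from WT for every measured member probe set, with its 95% interval from limma; filled symbols had an adjusted p under 0.05 and open symbols did not. The double-KO intervals of Rrm2 lie between -2.11 and -0.97, those of Mcm7 lie above 0, and no Jmjd1a-KO or Jmjd1b-KO symbol is filled.

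In the single knockouts no member gene passed against WT. In Jmjd1a-KO cells 0 of 8 genes passed where 20.7% of all genes did, with 3 of the 20 probe sets at an unadjusted p under 0.05 in limma. In Jmjd1b-KO cells 0 of 8 passed where 27.3% of all genes did, also with 3 probe sets at an unadjusted p under 0.05. Between Jmjd1a-KO and Jmjd1b-KO cells 0 of 8 passed where 31.9% did, with 4 at an unadjusted p under 0.05. Under other settings these counts ran up to 1, 2 and 3 genes. In double-KO against Jmjd1b-KO cells 2 genes fell, Rrm2 and Pcna, where 55.3% of all genes passed.

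Other cell type markers moved with genotype as well. In double-KO against WT cells 29.8% of all genes passed as higher and 21.3% as lower. Of 8 trophoblast markers 4 were measured (Tfap2c, Eomes, Krt8 and Krt18), and all 4 rose in double-KO against WT cells. All 4 also rose in Jmjd1b-KO against WT cells, where 27.3% of all genes passed in either direction. In Jmjd1a-KO against WT cells Eomes and Tfap2c rose. The mean per array over all 8 listed, flat ones included as in the lists that follow, was 8.31 on both double-KO arrays, 7.53 to 7.58 in Jmjd1a-KO, 7.68 to 7.70 in Jmjd1b-KO and 7.11 to 7.22 in WT cells. The defining markers Cdx2, Elf5, Hand1 and Gata3 were flat. Of 12 fibroblast markers 10 were measured, and 6 of them fell in double-KO against WT cells while 0 rose. Against WT, 8 fell in Jmjd1a-KO cells, and 8 fell and 1 rose in Jmjd1b-KO cells. Fibroblast array means were 7.78 to 7.97 in double-KO, 7.79 to 7.91 in Jmjd1a-KO, 6.99 to 7.13 in Jmjd1b-KO and 8.68 to 8.80 in WT cells. Of 8 endoderm markers 4 were measured, and 3 of them (Gata6, Lama1 and Sox17) rose in double-KO against WT cells, while Gata4, Sox7, Foxa2 and Afp were flat. Endoderm array means ran between 6.88 and 7.09 for double-KO, 6.77 and 6.84 for Jmjd1a-KO, 6.38 and 6.39 for Jmjd1b-KO, and 6.59 and 6.65 for WT. Of 6 neural markers 5 were measured, and 3 of them (Fabp7, Nes and Tubb3) fell in double-KO against WT cells. Neural array means ran between 7.40 and 7.61 for double-KO, 7.70 and 8.62 for Jmjd1a-KO, 6.96 and 7.03 for Jmjd1b-KO, and 8.59 and 8.65 for WT. Of the 10 embryonic stem cell markers 4 passed as higher in double-KO against WT cells (Nanog, Sox2, Tdgf1 and Zfp42) and 0 passed as lower. The median difference of the 10 was 0.04, on 1 probe set per gene. Without passing, Esrrb averaged 8.63 in double-KO against 9.74 in WT cells. Utf1, Dppa5a, Klf4 and Pou5f1 also averaged lower in double-KO cells. Esrrb did pass as lower in double-KO against Jmjd1a-KO cells. The part of these markers in the changes of Rrm2, Mcm7, Pcna and Rrm1 was not tested.

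The wider replication machinery was followed with 74 further genes in 4 lists, of which 54 were measured. In double-KO against WT cells 6 of the 54 rose and 18 fell, with a median difference of -0.05 against 0.03 for all genes. These were 44.4% of the list where 51.0% of all genes passed, 29.8% higher and 21.3% lower. Against Jmjd1b-KO cells 2 rose and 28 fell, with a median of -0.23 against 0.02 for all genes. Together these were 55.6% of the list where 55.3% of all genes passed, 30.4% higher and 24.9% lower. Against Jmjd1a-KO cells 2 rose and 11 fell, 24.1% of the list where 33.1% of all genes passed, 19.9% higher and 13.2% lower. The share that passed in either direction was thus close to or below that of all genes in these comparisons. The directions differed: in each of them more of the list fell than rose, while more of all genes rose than fell. This lean of the list was not tested as a set. Among the single knockouts, 5 rose and 5 fell with loss of Jmjd1a (18.5% of the list, against 20.7% of all genes), and 9 rose and 5 fell with loss of Jmjd1b (25.9%, against 27.3%), each against WT. The 10 calls with loss of Jmjd1a became 0 without either WT array, without Jmjd1a-KO replicate 1 and without either Jmjd1b-KO array, and 17 without Jmjd1a-KO replicate 2. The 14 calls with loss of Jmjd1b became 0 and 2 when WT replicates 1 and 2 were left out, and 1 and 0 when Jmjd1b-KO replicates 1 and 2 were. The counts depended on single arrays: the 24 calls of double-KO against WT became 9 without WT replicate 1, 12 without WT replicate 2, 15 without either Jmjd1b-KO array and 14 without double-KO replicate 2. The 30 calls against Jmjd1b-KO became 14 and 11 without Jmjd1b-KO replicates 1 and 2. The 13 calls against Jmjd1a-KO became 8 without either WT array, 6 without either Jmjd1b-KO array, and 7 and 5 without double-KO replicates 1 and 2.

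**Figure D4:**
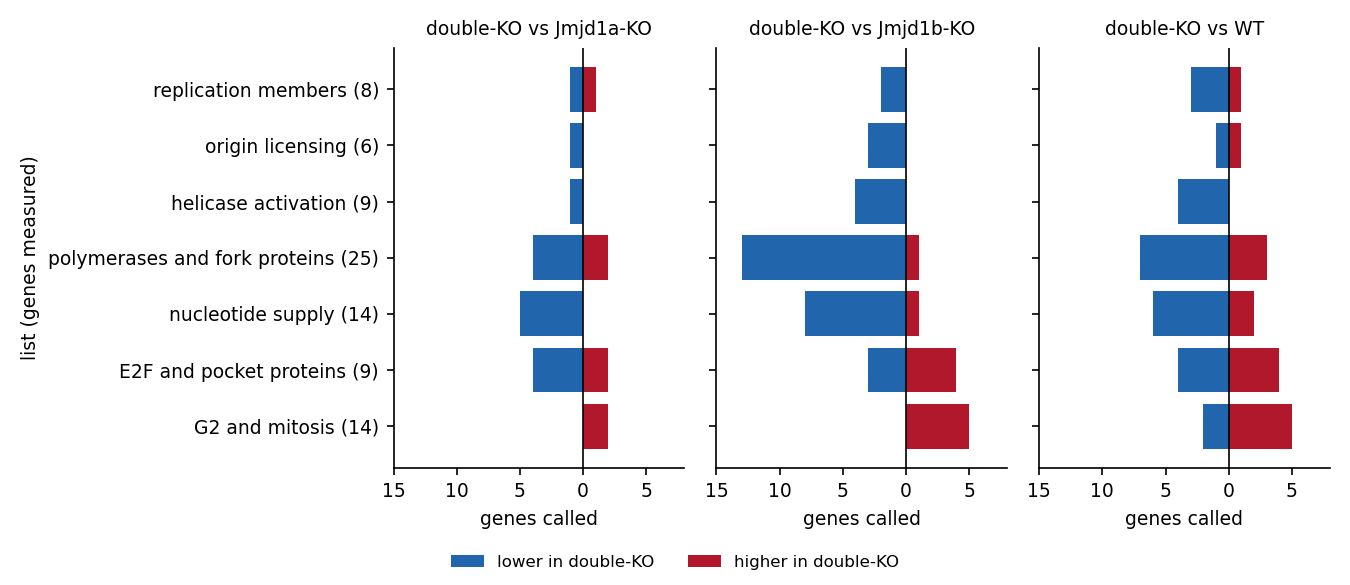
Number of genes that passed (limma adjusted p under 0.05 on at least 1 probe set) as higher (right of 0) or lower (left of 0) in double-KO cells, for the members and 6 gene lists, in 3 comparisons; the number of measured genes stands beside each list name. Lower genes outnumber higher ones among polymerases and fork proteins and in nucleotide supply in all 3 panels, with 7 against 3 and 6 against 2 in double-KO against WT. Among all genes, 29.8% passed as higher and 21.3% as lower in that comparison.

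Nucleotide supply, the list closest to Rrm2 in function, had 14 measured genes, of which 2 rose and 6 fell in double-KO against WT cells, 57.1% of the list where 51.0% of all genes passed. Shmt1, a folate enzyme that feeds thymidylate synthesis, read 8.28 and 8.27 in double-KO cells, 8.96 and 9.32 in Jmjd1a-KO cells, 9.74 and 9.59 in Jmjd1b-KO cells, and 9.41 and 9.60 in WT cells on 1422198_a_at. Its double-KO arrays were below all others, a fall of 1.23 against WT (limma adjusted p = 0.00133). The second Shmt1 probe set, 1425179_at, had an interaction of -1.20 (adjusted p = 0.00205), and it averaged 9.62 in double-KO against 10.69 in Jmjd1a-KO cells, and 10.87 in Jmjd1b-KO against 10.74 in WT cells. Atic, which completes purine synthesis, was lower in Jmjd1a-KO than in WT cells by 0.83 (adjusted p = 0.0206). Dctd, the dCMP deaminase, was lower there by 0.70 (adjusted p = 0.0199). In Jmjd1b-KO against WT cells Atic was lower by 0.32 on 1428506_at (adjusted p = 0.0261). Neither Atic nor Dctd passed the interaction. In double-KO against WT cells Atic fell by 1.20 (adjusted p = 0.00208) and Dctd fell by 1.08 (adjusted p = 0.00164). The double-KO falls of Shmt1, Atic and Dctd against WT passed under every alternative run for them. The Jmjd1a-KO calls of Atic and Dctd were lost when other groups were left out of the fit.

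The genes that rose in nucleotide supply changed less. Rrm2b, the p53-inducible relative of Rrm2, read 7.81 and 8.02 in double-KO cells, 8.05 and 7.99 in Jmjd1a-KO cells, 7.64 and 7.69 in Jmjd1b-KO cells, and 7.66 and 7.57 in WT cells. It rose by 0.30 in double-KO (adjusted p = 0.0308) and by 0.40 in Jmjd1a-KO cells (adjusted p = 0.0297) against WT. Both Jmjd1a-deficient groups thus had higher Rrm2b than WT. Samhd1, which breaks down deoxyribonucleotides, rose by 0.21 in double-KO cells (adjusted p = 0.0408) and by 0.54 in Jmjd1b-KO cells (adjusted p = 0.00751) against WT. The double-KO calls were lost with quantile normalization and with each array centred. Without single arrays, Rrm2b in double-KO cells was lost without either WT, either Jmjd1b-KO and double-KO replicate 2 (adjusted p = 0.0611 to 0.144), and in Jmjd1a-KO cells without either WT, either Jmjd1b-KO and Jmjd1a-KO replicate 1 (0.0687 to 0.156). Samhd1 in double-KO cells was lost without WT replicate 1, either Jmjd1b-KO and either double-KO array (0.0697 to 0.192), and in Jmjd1b-KO cells without WT replicate 1 and either Jmjd1b-KO array (0.0533 to 0.0644).

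Among polymerases and fork proteins 3 of 25 measured genes rose and 7 fell in double-KO against WT cells, 40.0% of the list against 51.0% of all genes. Clspn, which links the fork to the checkpoint, read 8.92 and 8.86 in double-KO cells, 9.34 and 9.35 in Jmjd1a-KO cells, 9.35 and 9.39 in Jmjd1b-KO cells, and 9.51 and 9.26 in WT cells. Both double-KO arrays were below all others, a fall of 0.49 against WT (adjusted p = 0.00751). Fen1, the flap endonuclease of Okazaki fragments, fell by 0.74 (adjusted p = 0.0143), a call lost without either WT array and without double-KO replicate 2 (adjusted p = 0.062 to 0.0719). Pole4, a small subunit of polymerase epsilon, fell by 1.26 in double-KO against Jmjd1b-KO cells (adjusted p = 0.00241). This difference was not specific to double-KO cells: Jmjd1a-KO cells were also below Jmjd1b-KO cells, by 1.03 (adjusted p = 0.0103). That second call was lost without either Jmjd1b-KO array and with all probe sets in the fit. Mean Pole4 was highest where only Jmjd1b was lost, at 10.86. The WT mean was 10.29, above 9.83 for Jmjd1a-KO and 9.6 for double-KO cells. Atad5, which unloads PCNA from DNA, rose by 0.36 in double-KO against WT cells (adjusted p = 0.0081). It also rose by 0.35 in Jmjd1a-KO against WT cells (adjusted p = 0.0243). That Jmjd1a-KO call was lost when other groups were left out of the fit. In Jmjd1b-KO cells Atad5 passed as higher too, with a mean of 9.63 against 9.38 in WT cells.

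Origin licensing and helicase activation changed by small amounts. Of 6 measured licensing genes 1 rose and 1 fell in double-KO against WT cells (33.3%, against 51.0% of all genes), and 0 rose and 3 fell against Jmjd1b-KO cells (50%, against 55.3%). Cdc6, which loads the MCM ring, fell by 0.38 in double-KO against Jmjd1b-KO cells (adjusted p = 0.00677). Of 9 measured activation genes 0 rose and 4 fell in double-KO against WT cells, 44.4% of the list and below the share of all genes. Mcm10, a helicase cofactor, fell by 0.40 in double-KO against Jmjd1b-KO cells (adjusted p = 0.00433). The calls of Cdc6 and Mcm10 in this comparison passed under all alternatives run for them.

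E2F and cell cycle genes stood beside the members as follows. Of 9 measured E2F and pocket protein genes 4 rose and 4 fell in double-KO against WT cells, 88.9% of the list where 51.0% of all genes passed. Rbl1, which encodes the repressor p107, rose by 0.96 (adjusted p = 0.000599), with 9.14 and 9.19 in double-KO cells, 8.19 and 8.12 in Jmjd1a-KO cells, 8.37 and 8.18 in Jmjd1b-KO cells, and 8.17 and 8.23 in WT cells. Tfdp1, the partner protein of E2F factors, fell by 1.15 (adjusted p = 0.00129), E2f8 fell by 0.70 (adjusted p = 0.00654) and E2f2 fell by 0.54 (adjusted p = 0.00101). For Rbl1 both double-KO arrays were above all others, and Rbl1 also passed the interaction (0.94, adjusted p = 0.00546). Of 14 measured G2 and mitosis genes 5 rose and 2 fell, 50% of the list and close to the share of all genes. Cdk1, the mitotic kinase, rose by 0.57 (adjusted p = 0.00392). The share of cells in each cell cycle phase was not measured, and its part in these changes was not tested.

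Likeness to the members was measured as Pearson r over the 8 arrays with their mean centred profile, taken over 1 probe set per gene, among 6635 probe sets of other genes with a span of at least 0.5. The highest were Nup210 (0.993), Psat1 (0.988), Pebp1 (0.986), Uqcc2 (0.984), Dis3 (0.984) and Herpud1 (0.983). Rrm2 had the widest span of the 8 probe sets averaged, 1.36 against 0.143 to 0.368 for the others, so this mean profile is largely that of Rrm2. Each member is also part of the mean it is set against. With that limit, Rrm2 correlated with the mean profile at 0.92, Pcna at 0.927 and Rrm1 at 0.882, whereas Mcm3 reached 0.209 and Mcm7 was opposite at -0.461. Nup210, a nuclear pore protein gene, averaged 8.27 in double-KO cells, 8.78 in Jmjd1a-KO cells, 9.0 in Jmjd1b-KO cells and 9.15 in WT cells. Psat1, a serine synthesis enzyme gene, averaged 10.38 in double-KO cells, 11.80 in Jmjd1a-KO cells, 12.38 in Jmjd1b-KO cells and 12.54 in WT cells. All of these values come from the same 8 arrays and 4 genotypes, so r describes a shared pattern over few points.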

How the data were processed

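Total RNA from 8 cultures of mouse embryonic stem cells was labelled from 200 ng and hybridised to Affymetrix arrays, 1 per sample, per the labels' protocols. The values in the deposited series table are log2 signals that the authors had already processed. Per the submitters' processing notes R 2.7.2 was used; the method of background correction and normalization was not given in the sources used. Values of 3.03 to 14.61 show the log2 scale. Only the processed values were used, and having 2 arrays per group limits precision. Of 45101 probe sets, 34958 had 1 gene symbol in the platform table, 932 several and 9211 none.

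Probe sets spanning under 0.01 (33599, 74.5%) were left out. A model of 4 group means was fitted to the other 11502 with limma 3.58.1 in R 4.3.3 (lmFit, eBayes; 4 residual and 1.89 prior degrees of freedom), with p-values adjusted by Benjamini-Hochberg over all 11502 in each of 7 comparisons and a threshold of 0.05. A gene passed where at least 1 probe set passed and none passed the other way. All groups share 1 estimate of spread, and comparisons share arrays. The members and lists were chosen with earlier results of these data known. Named genes were the members, the deleted genes, per list and comparison the 3 largest rises and falls among genes that passed without overlap of arrays, and the 6 genes most like the members. A list's median uses 1 probe set per gene, that with the highest mean.

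Alternatives were quantile normalization, centring, all probe sets, 1 probe set per gene, a mean of at least 7, robust eBayes with trend, only the groups compared, the replicate block, array weights and omission of each array. In 10 simulated runs of double-KO against WT on 11502 probe sets with 200 changed, 49.8% of changes of 0.5, 87.6% of 1, 97.8% of 1.5 and 98.6% of 2 were recovered, with 4.38% false calls. The runs gave each probe set the same spread in all groups. In the data the replicate spread differed between groups and 46.5% of probe sets passed, so these rates need not hold for them. Plots used matplotlib 3.10.9 under Python 3.11.15.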

Additional observations from a re-analysis of the deposited data

Results flagged for a closer look

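The change in Rrm2 with loss of Jmjd1b differed between Jmjd1a-deficient cells and cells with Jmjd1a on all 3 of its probe sets, by the limma interaction test. The differences between these changes were -1.60 on 1416120_at, -1.08 on 1434437_x_at and -1.35 on 1448226_at, on the log2 scale. The direction was the same on all 3 probe sets, and it kept its sign without each of the 8 arrays, with values of -1.82 to -0.97 over all alternatives.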

How the results depend on the processing

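Of 2276 values of the members under alternatives, 2153 kept their direction and side of the threshold, 83 no longer passed, 40 newly passed and 0 changed sign once called. Of 22 member calls 10 passed in all alternatives, 9 of them falls of Rrm2 in double-KO cells and the other its interaction on 1448226_at. Of 125 calls of other named genes 26 did.

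Counts of member genes that moved were as follows. With robust eBayes with trend the count was 1 for Jmjd1a-KO against WT, 1 for Jmjd1b-KO against WT, 3 for Jmjd1a-KO against Jmjd1b-KO and 2 for the interaction. With all probe sets in the fit it was 2 for double-KO against WT, 2 for Jmjd1a-KO against Jmjd1b-KO and 2 for the interaction. With only the groups compared it was 2 for double-KO against WT, 1 for double-KO against Jmjd1a-KO, 1 for Jmjd1b-KO against WT and 1 for Jmjd1a-KO against Jmjd1b-KO. With array weights it was 2 for Jmjd1b-KO against WT and 1 for double-KO against Jmjd1a-KO, and with centring 1 for double-KO against Jmjd1a-KO. Without 1 array in turn the member counts ran between 0 and 0 (Jmjd1a-KO against WT), 0 and 1 (Jmjd1b-KO against WT), 1 and 4 (double-KO against WT), 1 and 2 (double-KO against each single knockout), 0 and 1 (Jmjd1a-KO against Jmjd1b-KO) and 1 and 1 (interaction).

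For the 54 other replication genes, all probe sets in the fit gave 1 (Jmjd1a-KO against WT), 3 (Jmjd1b-KO against WT), 10 (double-KO against WT), 2 (double-KO against Jmjd1a-KO), 18 (double-KO against Jmjd1b-KO), 3 (Jmjd1a-KO against Jmjd1b-KO) and 4 (interaction). Only the groups compared gave 0, 27, 1 and 7 for Jmjd1a-KO against WT, Jmjd1b-KO against WT, double-KO against Jmjd1a-KO and Jmjd1a-KO against Jmjd1b-KO, and array weights 3, 27 and 4 for the first 3 of these. Without 1 array in turn the counts ran between 0 and 17, 0 and 17, 9 and 27, 5 and 15, 11 and 32, 0 and 17, and 2 and 22, in the order of the first sentence of this paragraph.

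Deviations of arrays with the same replicate number correlated between -0.0439 and 0.239 over pairs of groups. With 2 arrays per group these values cannot settle whether the replicate numbers pair the arrays. With the replicate block the count of member genes was 2 for double-KO against WT, and the counts of other replication genes were 6 for Jmjd1a-KO against WT, 8 for Jmjd1b-KO against WT and 8 for double-KO against Jmjd1a-KO. The other counts stayed within 1.5 times. The cause of these shifts was not tested. Among alternative values, Mcm2 newly passed in 1, Mcm3 in 2, Mcm5 in 3 and Mcm6 in 1. Signal over background was not analysed here.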

Other observations

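One further probe set, 1424991_s_at, is annotated to both Tyms and its pseudogene and so could not be assigned to Tyms alone. It read 10.73 and 10.44 in double-KO cells, 10.72 and 10.67 in Jmjd1a-KO cells, 10.44 and 10.39 in Jmjd1b-KO cells, and 10.50 and 10.60 in WT cells, a span of 0.337 on the log2 scale, and the double-KO values overlapped those of WT.

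Rnaseh2c encodes a subunit of the enzyme that removes ribonucleotides from DNA. Among polymerases and fork proteins it was the only gene that passed the interaction above 0: 1.35 on 1439453_x_at (limma adjusted p = 0.00421). Against WT cells it was lower in both single knockouts, by 0.39 in Jmjd1a-KO (adjusted p = 0.0448) and 0.68 in Jmjd1b-KO cells (adjusted p = 0.0103). It did not pass in double-KO against WT cells. It averaged 9.96 in double-KO and 9.29 in Jmjd1a-KO cells, against 9.0 in Jmjd1b-KO and 9.68 in WT cells, so it was higher in double-KO than in Jmjd1b-KO cells by 0.96 (adjusted p = 0.000951).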
